A study of Mus musculus with 9 samples.

Results

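Antigen presentation genes encode the molecules that display protein fragments on the cell surface to T cells. A list of 10 such genes was followed: Cd74, H2-Aa, H2-Ab1 and H2-Eb1 of the class II pathway, and B2m, H2-K1, H2-D1, Tap1, Psmb8 and Psmb9 of the class I pathway. A member was taken where a row of the expression table carried its symbol alone, with the row of highest mean kept, which left 8 of the 10 genes among 19938 genes in all. H2-K1 and H2-D1 appeared only on 2 probe sets that also carry the symbol LOC547349, so the classical class I heavy chains have no value here.

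RNA from the brains of mice on a C57/6J background was hybridised to 9 arrays of the type GeneChip Mouse Gene 1.0 ST, with 3 arrays for each of 3 groups. The HPYD group held APP/PS1 transgenic mice given the peptide HPYD at 33 mg/mL, 5 μL per day through the nose for 30 days. The model group held APP/PS1 mice given saline, and the control group held wild type mice given saline. Both transgenes of these mice, one for the amyloid precursor protein and the other for a presenilin, raise amyloid output, and plaques build up as the animals age. They were 8 months old when bought, and the paper describes the controls as matched in age. The paper does not name the line, so the promoter that drives the transgenes is not stated. Nor do the sources say whether the arrays of a group came from different animals, so the p-values rest on a spread between samples that may be technical.

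In the class II pathway, an alpha and a beta chain pair in the cell, are filled for a time by the invariant chain encoded by Cd74, and then bind peptides from engulfed protein. In the class I pathway, a heavy chain pairs with beta-2-microglobulin, the product of B2m. Proteasomes cut cytosolic proteins into the peptides for class I, with Psmb8 and Psmb9 encoding catalytic subunits of the form induced by interferon, and Tap1 encodes a subunit of the transporter that carries the peptides into the endoplasmic reticulum. In the healthy brain class II is mostly found on macrophages and dendritic cells at the borders and on few microglia, whereas B2m is expressed by most cells and by microglia in particular.

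Promoter sequences are shown for 3 members because class II genes and B2m are known to share short promoter elements: an X box, a Y box that holds CCAAT and, in B2m, an interferon response element. The RefSeq table for GRCm38.p6 holds a window for 8 of the 10 listed genes. Each run is the 150 bases directly before the gene's start, on the gene's strand. Both strands were searched. Capitals mark the motif CCAAT, which reads as ATTGG where it lies on the opposite strand, the motif TGATGA, which then reads as TCATCA, and a GAAA pair, which means GAAA, any 2 bases and GAAA once more. H2-Aa lies on the minus strand at chr17:34287824-34287973, H2-Eb1 on the plus strand at chr17:34305717-34305866 and B2m on the plus strand at chr2:122147537-122147686.
H2-Aa: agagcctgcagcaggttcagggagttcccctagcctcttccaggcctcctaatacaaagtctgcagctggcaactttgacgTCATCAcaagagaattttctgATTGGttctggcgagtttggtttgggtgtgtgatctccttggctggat
H2-Eb1: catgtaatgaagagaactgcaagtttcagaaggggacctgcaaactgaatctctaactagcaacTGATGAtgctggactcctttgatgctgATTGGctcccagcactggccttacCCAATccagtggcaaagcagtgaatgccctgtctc
B2m: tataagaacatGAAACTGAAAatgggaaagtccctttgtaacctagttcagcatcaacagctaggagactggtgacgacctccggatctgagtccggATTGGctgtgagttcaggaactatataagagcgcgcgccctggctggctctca

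Over the 250 bases before the start, 7 of the 8 genes with a window held CCAAT, against 33.8% of all 32851 windows. The windows of Psmb9 and Tap1 overlap and hold the same CCAAT site. H2-K1 has 2 windows, so a count of genes is only roughly comparable with a share of windows. TGATGA was found in 3 of the 8, H2-Aa, H2-Eb1 and H2-D1, against 10.5% of all windows. In those 3 genes TGATGA began 15 to 40 bases before CCAAT, a pair held by 0.661% of all windows; the spacing was 21 bases in H2-Aa and 27 bases in H2-Eb1. The GAAA pair was found in B2m alone, beginning 139 bases before its start, against 2.98% of all windows. These matches describe the letters and show no binding.

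Some arrays stood apart before any comparison. App, which encodes the amyloid precursor protein, was 12.98, 13.01 and 12.53 on the log2 scale in the HPYD group, 12.99, 12.95 and 13.02 in the model group and 12.57, 12.56 and 12.62 in the control group. Prnp, the prion protein gene, was 12.54, 12.47 and 11.52, against 12.55, 12.42 and 12.50 in the model group and 11.78, 11.81 and 11.76 in the control group. The array labelled HPYD group 3 thus lay with or below the control arrays for both and goes against its label. Xist, the RNA that coats the silenced X chromosome in females, was 5.22 in that array and between 5.20 and 5.69 in the control group, against 11.18 to 11.78 in all other arrays, and the Y-linked gene Kdm5d was 7.84 in it, 7.62 to 7.77 in the control group and at most 5.23 elsewhere. Sex and genotype therefore cannot be told apart between the model and control groups. Model group 1, model group 2 and HPYD group 2 held raised genes of granulocytes and skeletal muscle, with values given beside the class II genes. Neuron genes were on average between 12.07 and 12.23 in every array, and array medians lay between 6.69 and 6.82. Within the neuron list, Syt1 was lower in model group 2 and the array labelled HPYD group 3, at 12.37 and 12.40. In the other arrays Syt1 lay between 12.87 and 12.98, while Snap25 of the same list lay between 13.08 and 13.27 in all arrays.

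The class II members were raised in some arrays of both transgenic groups, not in all arrays of either. Cd74, H2-Aa, H2-Ab1 and H2-Eb1 each had their 3 highest values in the same arrays, in the same order: model group 1, then HPYD group 2, then model group 2. Their mean differences of model from control were between 0.45 and 1.06 on the log2 scale, and those of HPYD from model between -0.33 and -0.10. No class II member passed an adjusted p under 0.05 in any comparison.

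Cd74 was 7.58, 8.74 and 7.72 in the HPYD group, 8.94, 8.61 and 7.49 in the model group and 7.25, 7.56 and 7.06 in the control group. Model group 3 lay below the highest control array, so the model and control groups overlapped, while the lowest HPYD array lay just above that control array. In order of level, the step down to the next array, from model group 2 to the array labelled HPYD group 3, was 0.88. The HPYD mean was 8.01 ± 0.63, the model mean 8.35 ± 0.76 and the control mean 7.29 ± 0.25 (SD, n = 3 arrays each). Model exceeded control by 1.06 (standard error 0.42), or 2.08-fold, with an adjusted p of 0.859 from limma.

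H2-Aa, the alpha chain of the I-A molecule, was 7.57, 8.64 and 8.01 in the HPYD group, 8.91, 8.59 and 7.25 in the model group and 7.12, 7.77 and 7.40 in the control group. Model group 3 lay below 2 of the control arrays. The model mean of 8.25 ± 0.88 and the control mean of 7.43 ± 0.33 (SD, n = 3 arrays each) differed by 0.82 (standard error 0.44; adjusted p of 0.859 from limma). H2-Ab1, the beta chain that pairs with it, was 7.05, 8.10 and 7.36 in the HPYD group, 8.26, 8.05 and 7.12 in the model group and 7.02, 7.35 and 6.93 in the control group. The groups again overlapped, with model group 3 and HPYD group 1 among the control values. H2-Ab1 differed by 0.70 between model and control (standard error 0.34).

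H2-Eb1 encodes the beta chain of the I-E molecule, whose alpha chain C57BL/6 mice lack, so its transcript has no partner chain on this background. It was 7.17, 8.05 and 7.64 in the HPYD group, 8.14, 7.86 and 7.17 in the model group and 7.39, 7.36 and 7.06 in the control group. HPYD group 1 and model group 3 lay below 2 of the 3 control arrays, so neither transgenic group was separated from the control group. The difference of model from control was 0.45 (standard error 0.28), the smallest of the 4 class II members.

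**Figure D1:**
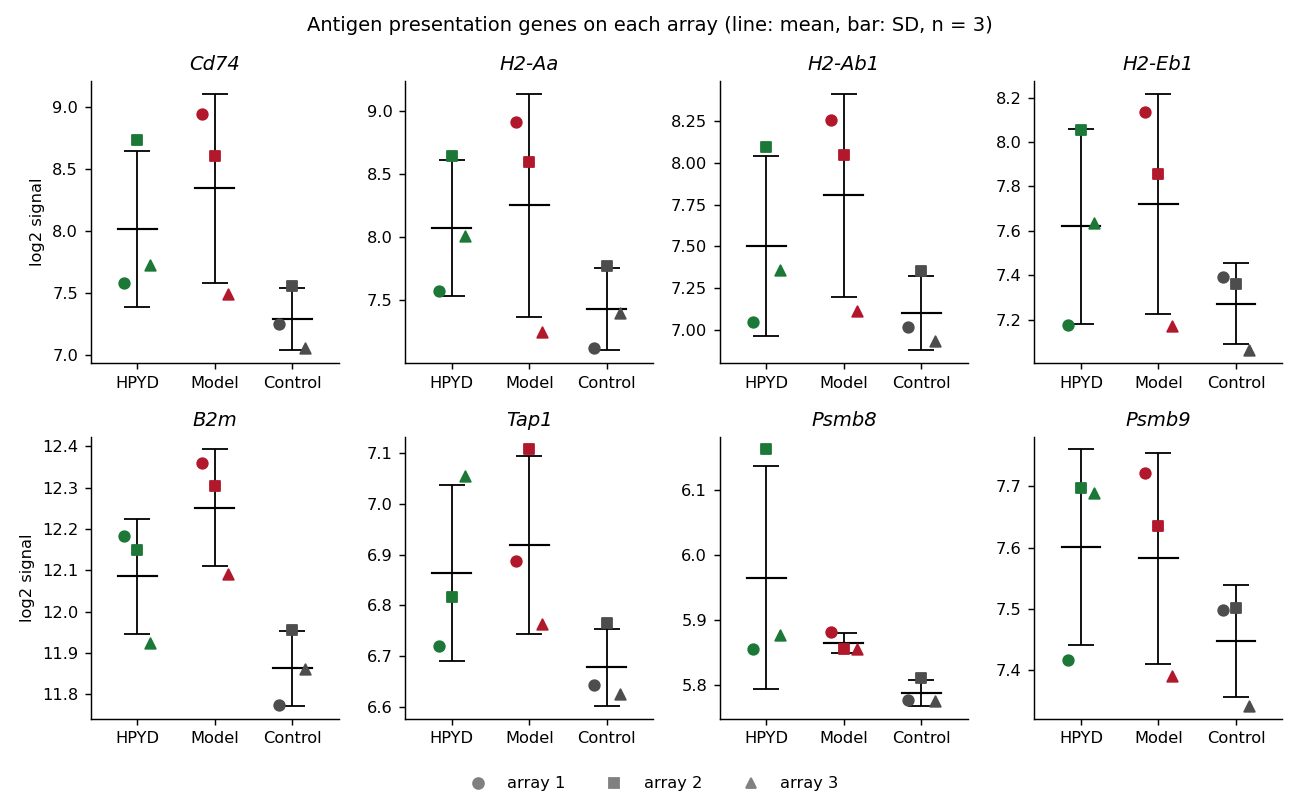
Signal on the log2 scale (vertical axes, which differ between panels and do not start at 0) of the 8 measured antigen presentation genes in the HPYD, model and control groups. Points are arrays, lines are group means and bars are SD (n = 3). In the 4 class II panels (top row) HPYD group 2, model group 1 and model group 2 lie above the other arrays, and B2m in all 3 model arrays lies above the control arrays.

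Taken as the median difference from the control mean, the 4 class II members were at 0.05, 1.10 and 0.40 in HPYD group 1, 2 and 3, at 1.32, 1.05 and -0.04 in model group 1, 2 and 3 and at -0.06, 0.26 and -0.19 in the control arrays. The 10 granulocyte markers, all 10 measured and led by Ngp and Lcn2, granule proteins of neutrophils, were at -0.82, 2.78 and -0.10 in the HPYD group, at 3.38, 3.73 and -0.82 in the model group and at -0.11, 0.14 and -0.03 in the control group. Their mean level ranged between 5.99 and 9.50 in the HPYD group, 5.84 and 10.43 in the model group and 6.75 and 7.08 in the control group. The same 3 arrays were thus high for granulocyte genes and for class II genes, though model group 2 led the granulocyte list and model group 1 the class II genes.

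The 12 skeletal muscle markers, all measured, were at -0.07, 0.81 and 0.05 in the HPYD group, at 2.24, 3.68 and 0.03 in the model group and at -0.08, 0.07 and 0.00 in the control group, so the same arrays led there as well. Acta1, the actin of skeletal muscle, was 7.67, 8.64 and 7.50 in the HPYD group, 10.23, 11.93 and 7.86 in the model group and 7.80, 7.76 and 7.88 in the control group. Pvalb, the brightest marker of the list, was highest in model group 2 and the array labelled HPYD group 3, at 12.06 and 11.73. It was 10.56 in HPYD group 2, 10.52 in model group 1 and between 9.39 and 10.28 elsewhere. The mean level of the list ranged between 6.70 and 7.56 in the HPYD group, 6.78 and 10.36 in the model group and 6.56 and 6.74 in the control group. Granulocytes and skeletal muscle are not part of brain parenchyma. Their part in the class II values was not tested.

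The lists of B cells and border macrophages, which carry class II, were also high in these arrays, by smaller amounts than the granulocyte list. The B cell list, with 8 of 10 markers measured, was at 0.03, 0.39 and 0.15 in the HPYD group, at 0.18, 0.23 and -0.01 in the model group and at -0.05, 0.05 and 0.00 in the control group. Its highest arrays were HPYD group 2, model group 2 and model group 1, and the B cell receptor genes Cd79b (6.35, 7.15 and 6.79 in the HPYD group, 6.93, 7.18 and 6.55 in the model group, 6.48, 6.68 and 6.59 in the control group) and Ighm (6.53, 7.27 and 6.97, against 7.53, 7.03 and 6.54 in the model group and 6.61, 6.79 and 6.63 in the control group) were highest in those arrays too. Border macrophages, with 7 of 7 markers measured, were at 0.05, 0.29 and -0.08 in the HPYD group, 0.68, 0.22 and -0.13 in the model group and 0.02, 0.02 and -0.03 in the control group. Their mean level was 6.22, 6.86 and 6.11 in the HPYD group, 6.91, 6.88 and 6.12 in the model group and 6.29, 6.28 and 6.25 in the control group, so the same 3 arrays were highest. Cbr2, a carbonyl reductase, was 7.15, 9.23 and 7.03 in the HPYD group, 7.80, 7.64 and 7.20 in the model group and 7.17, 7.13 and 6.99 in the control group, and F13a1, a coagulation factor subunit made by macrophages, was highest in model group 2 and model group 1, at 7.95 and 7.87, against 6.76 to 6.89 in the control group. The part of B cells and border macrophages in the class II values was not tested. The dendritic cell list, with 7 of 7 markers measured, did not share this order. It was at 0.02, 0.13 and 0.34 in the HPYD group, 0.06, 0.18 and 0.01 in the model group and 0.05, -0.05 and 0.02 in the control group. In the array labelled HPYD group 3, where the list was highest, its 2 brightest markers went opposite ways. Flt3 was 8.74 there, against 7.44 to 7.67 in the control group, and Cd209a 6.46, against 7.38 to 7.67. Model group 2 was alike in this, with Flt3 at 8.71 and Cd209a at 7.02. The list of T cells, which recognise class II rather than carry it in mice, had 7 of 8 markers measured and stayed between -0.07 and 0.17 in all arrays. In whole tissue, more cells of a type and more RNA per cell cannot be told apart.

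Microglial genes followed another order. The plaque-associated microglia list, with 10 of 10 markers measured, was at 1.24, 0.90 and -0.16 in the HPYD group, 1.08, 0.68 and 1.07 in the model group and -0.05, -0.01 and 0.07 in the control group. Tyrobp, a signalling adaptor of microglial receptors, was 10.68, 10.81 and 8.54 in the HPYD group, 10.70, 10.26 and 10.58 in the model group and 9.35, 9.42 and 9.47 in the control group. All model arrays and HPYD group 1 and 2 were high there. These include model group 3 and HPYD group 1, where the class II members lay among the control values. The exception was Cd74 in HPYD group 1, just above them at 7.58, against at most 7.56 in the control group. The homeostatic microglia list, with 7 of 8 markers measured, was at 0.23, 0.25 and -0.59 in the HPYD group, 0.09, -0.35 and 0.29 in the model group and -0.09, -0.02 and 0.08 in the control group.

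**Figure D2:**
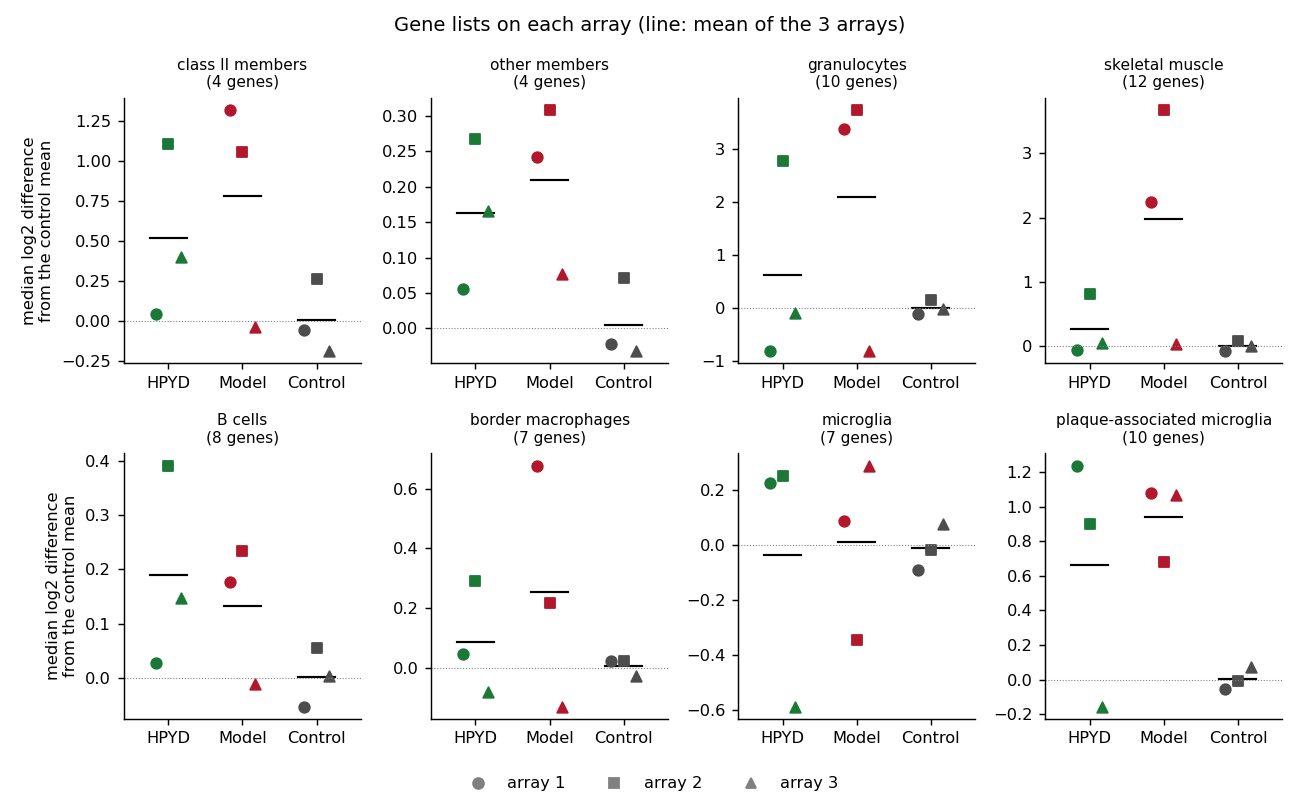
Median log2 difference from the control mean (vertical axes, which differ between panels) of the class II members, the other 4 measured members and 6 cell type lists, by array in the HPYD, model and control groups; lines are means of the 3 arrays. HPYD group 2, model group 1 and model group 2 are high for class II, granulocyte and skeletal muscle genes, whereas plaque-associated microglia genes are high in all model arrays and in HPYD group 1 and 2.

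The class I members differed less between arrays than the class II members, and none had the same 3 highest arrays. B2m was 12.18, 12.15 and 11.93 in the HPYD group, 12.36, 12.30 and 12.09 in the model group and 11.77, 11.95 and 11.86 in the control group. The lowest model array was above the highest control array (p = 0.1 in an exact permutation test, two-sided, the smallest value possible with 3 arrays in each group), as were HPYD group 1 and 2, while the array labelled HPYD group 3 lay within the control values. Model exceeded control by 0.39 (standard error 0.10; unadjusted p of 0.00436 and adjusted p of 0.859 from limma), or 1.31-fold. B2m had the smallest unadjusted p of the 8 members. Its 2 highest arrays were model group 1 and model group 2.

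Tap1 was 6.72, 6.82 and 7.06 in the HPYD group, 6.89, 7.11 and 6.76 in the model group and 6.64, 6.77 and 6.63 in the control group. Model group 2 and the array labelled HPYD group 3 were highest, and both transgenic groups overlapped the control group. Tap1 differed by 0.24 between model and control (standard error 0.11). Psmb9 was 7.42, 7.70 and 7.69 in the HPYD group, 7.72, 7.64 and 7.39 in the model group and 7.50, 7.50 and 7.34 in the control group. Its 2 highest arrays, model group 1 and HPYD group 2, were those of the class II members, HPYD group 1 and model group 3 were again among the control values, and the difference of model from control was 0.14 (standard error 0.11).

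Psmb8 was 5.86, 6.16 and 5.88 in the HPYD group, 5.88, 5.86 and 5.86 in the model group and 5.78, 5.81 and 5.78 in the control group. HPYD group 1, model group 2 and model group 3 held an identical value, for a reason that was not tested. Such ties were not particular to Psmb8: Psmb10, for example, held the same 9.17 in model group 1, control group 1 and control group 2. All 6 arrays labelled as transgenic lay above all 3 control arrays, by small steps apart from HPYD group 2. They include the array labelled HPYD group 3, which goes against its label. The differences were 0.08 for model from control and 0.18 for HPYD from control (standard error 0.08 each), and Psmb8 was dim enough to be dropped by the filter on dim genes.

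Model against control sets transgenic brain against wild type brain, and by Xist and Kdm5d the groups also differ in sex. In this comparison the mean of each of the 8 measured members was higher in the model group, against 45.0% of all genes. Their median log2 difference was 0.42, against -0.01 over all genes. After the Benjamini-Hochberg adjustment limma called 0 of the 8 members and 0% of the 19938 genes. At an unadjusted p under 0.05, 2 of the 8 were higher, Cd74 and B2m, against 2.87% of all genes. The groups did not overlap, with model higher, for 2 of the 8, B2m and Psmb8, against 4.83% of all genes. Xist, at a log2 difference of 6.15, also had an adjusted p of 0.859 from limma. Its standard error of 1.46 takes in the HPYD group, where the SD was 3.57, against 0.31 in model and 0.28 in control. The array labelled HPYD group 3 was low there, so Xist does not gauge the members. With only the 6 arrays compared limma called 5 genes, and without the array labelled HPYD group 3 it called 7, with 0 members in both. With 3 arrays a group, a count of 0 still does not show that members did not differ.

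The size of these differences moved with the arrays kept. Without model group 1, model group 2 and HPYD group 2, an alternative added after the data were seen, model group 3 was the only model array and was assumed to vary like the other groups; the median of the members was then 0.042, and H2-Aa, H2-Eb1 and Psmb9 were lower in model, with differences of -0.18, -0.10 and -0.057. Under the same setting B2m differed by 0.23, Cd74 by 0.20 and H2-Ab1 by 0.016. With the mean granulocyte level as a covariate, also added later, all 8 members stayed higher in model with a median of 0.19, B2m differed by 0.31 and Cd74 by 0.48 (unadjusted p of 0.0174 and 0.0227 from limma), and H2-Aa by 0.21. Leaving out model group 3 alone had the opposite effect: the median was 0.60, that of the class II members 1.19, and 6 of the 8 members had an unadjusted p under 0.05, against 9.67% of all genes in that fit.

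For HPYD against model, which asks what the peptide changed, 6 of the 8 members had a lower mean in the HPYD group and Psmb8 and Psmb9 a higher one, where 57.5% of all genes had a higher one. The median log2 difference was -0.13, against 0.02 over all genes. Limma called 0 of the 8 members and 0% of all genes after adjustment; at an unadjusted p under 0.05, 0 members were lower, against 0.752% of all genes, and for 0 members did all HPYD arrays lie below all model arrays, against 0.983% of all genes. The largest difference was that of Cd74, -0.33 (standard error 0.42), smaller than its standard error. B2m differed by -0.17 (standard error 0.10; unadjusted p of 0.133 from limma). Without the array labelled HPYD group 3 the median was -0.12, Cd74 differed by -0.19 and B2m by -0.086, and Psmb9 was then lower in HPYD, at -0.026.

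The direction of the class II differences between HPYD and model depended on which arrays were kept; the model group held 2 of the 3 raised arrays and the HPYD group 1. Without those 3 arrays Cd74, H2-Aa, H2-Ab1 and H2-Eb1 were all higher in HPYD, by 0.16, 0.54, 0.086 and 0.23, and with the granulocyte level as a covariate by 0.083, 0.26, 0.039 and 0.17. In the fit without the 3 arrays the HPYD group held HPYD group 1 and the array labelled HPYD group 3, and the model group model group 3 alone. HPYD group 1 by itself was above model group 3 for Cd74 (7.58 against 7.49) and H2-Aa (7.57 against 7.25), below it for H2-Ab1 (7.05 against 7.12) and level with it for H2-Eb1 (7.17 in both), so for H2-Ab1 and H2-Eb1 the sign rested on the array labelled HPYD group 3. None had an unadjusted p under 0.05 in either fit, the smallest being 0.143 for H2-Aa without the 3 arrays. B2m stayed lower in HPYD in both, with differences of -0.037 and -0.11.

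For HPYD against control, all 8 members had a higher mean in the HPYD group, against 54.3% of all genes, with a median log2 difference of 0.29, against 0.01 over all genes. Limma called 0 of the 8 members and 0% of all genes; at an unadjusted p under 0.05, 0 members were higher, against 2% of all genes. The HPYD arrays did not overlap the control arrays, and were higher, for 2 of the 8, Cd74 and Psmb8, against 4.78% of all genes. Cd74 differed by 0.72 (standard error 0.42) and B2m by 0.22 (standard error 0.10). Without the array labelled HPYD group 3 these became 0.87 and 0.30, and B2m and Psmb8 had unadjusted p of 0.0161 and 0.0446 from limma, with adjusted p of 1. In that fit 2.26% of all genes had an unadjusted p under 0.05. By Xist and Kdm5d, the HPYD and control arrays left in it also differ in sex, so sex, genotype and treatment cannot be told apart there. This comparison shares the HPYD arrays and the control arrays with the other 2.

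When limma's F test asked for any difference among the 3 groups, 0 of the 8 members and 0% of the genes passed after adjustment. At an unadjusted p under 0.05, 1 member passed, B2m (0.0134), against 2.74% of all genes. Cd74 had the next smallest p, 0.0853.

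**Figure D3:**
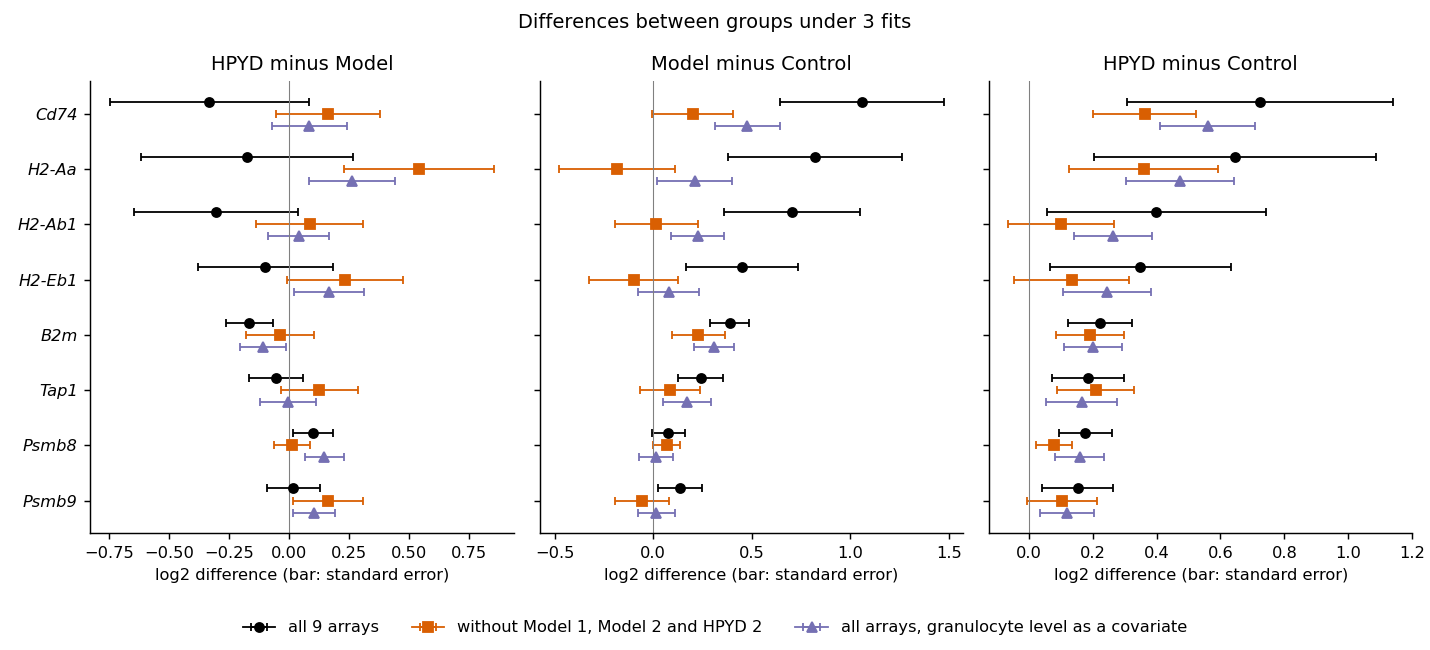
Log2 differences of the 8 members (rows) for HPYD minus model, model minus control and HPYD minus control, with all 9 arrays, without the 3 arrays with raised granulocyte and muscle genes, and with the granulocyte level as a covariate; bars are standard errors and the horizontal scale differs between panels. The class II differences move towards 0 in model minus control and change sign in HPYD minus model, while B2m keeps its sign.

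The rest of the pathway was followed with lists of 70 genes, 57 of them measured, of which limma called 0 after adjustment in any comparison. Among the class II genes other than the members, with 10 of 13 measured, 7 had a higher mean in model than in control, against 45.0% of all genes, and 3 were higher at an unadjusted p under 0.05, against 2.87% of all genes. These were Lgmn and Ctsl, lysosomal proteases that trim antigens and the invariant chain, and H2-Ob, a chain of a class II inhibitor. Lgmn was 10.76, 10.79 and 10.76 in the HPYD group, 10.72, 10.89 and 10.86 in the model group and 10.52, 10.52 and 10.67 in the control group. Ctsl was 10.46, 10.54 and 10.55 in the HPYD group, 10.46, 10.40 and 10.44 in the model group and 10.14, 10.28 and 10.28 in the control group. For both, all 6 arrays labelled as transgenic lay above all control arrays, with no high array set apart as in the class II chains. The array labelled HPYD group 3, which goes against its label, is among them.

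Ifi30, a lysosomal thiol reductase that unfolds antigens, was 7.39, 8.15 and 7.60 in the HPYD group, 7.97, 8.29 and 7.21 in the model group and 7.05, 7.22 and 7.37 in the control group, so its 3 highest arrays were those of the class II members. Irf8, a transcription factor of microglia and other myeloid cells, was 7.65, 7.87 and 7.07 in the HPYD group, 7.86, 7.56 and 7.73 in the model group and 6.98, 7.15 and 7.20 in the control group. It had all model arrays and HPYD group 1 and 2 above the control arrays, with a difference of 0.61 between model and control (standard error 0.19). Of the 17 of 18 regulators measured, Irf8 and Ifngr1, a chain of the interferon gamma receptor that differed by 0.30, were higher at an unadjusted p under 0.05 for model against control, again beside 2.87% of all genes. The list as a whole had a median of 0.03, with 11 of the 17 higher in model, against 45.0% of all genes. Nlrc5, Rfx5 and Rfxap were among the lower ones, at -0.02, -0.01 and -0.03, and Ciita of the class II list was at -0.02.

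On the class I side, 10 of 19 other heavy chain genes were measured, and 9 of the 10 had a higher mean in model than in control, against 45.0% of all genes, with a median of 0.13, against -0.01 over all genes. H2-Q4, a nonclassical class I gene, was 6.27, 6.45 and 6.35 in the HPYD group, 6.54, 6.61 and 5.96 in the model group and 5.97, 5.91 and 6.00 in the control group, with model group 3 at control values. Heavy chain genes resemble each other in sequence, so cross-hybridisation between them cannot be told apart from their own signal. Peptide loading genes other than Tap1 had a median of 0.04 over 7 of 7 measured, where Tapbp, which bridges the transporter and class I, differed by 0.27, Tap2, the partner of Tap1, by 0.08 and Tapbpl, a relative of Tapbp that also edits the peptides of class I, by -0.19. The 4 of 4 other genes of the immunoproteasome and its activator had a median of -0.03 and the 3 of 3 constitutive catalytic subunits -0.0026, the value of Psmb5, while Psmb10 of the immunoproteasome was at -0.10. The 6 of 6 costimulation genes had a median of 0.15, with 5 of the 6 higher in model than in control. At an unadjusted p under 0.05, 1 of them was higher, against 2.87% of all genes: Cd274, a ligand that restrains T cells, with a difference of 0.21 (standard error 0.07).

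For HPYD against model the medians of these lists lay between -0.06 and 0.02, and Psme2, a subunit of the proteasome activator, was the single gene of the 57 with an unadjusted p under 0.05; 0.752% of all genes were lower at that threshold and 1.97% passed in either direction, so 1 of 57 is near the share of all genes. It was 9.16, 9.11 and 8.98 in the HPYD group, 9.20, 9.35 and 9.22 in the model group and 9.19, 9.14 and 9.16 in the control group. All HPYD arrays lay below all model arrays, by a mean of -0.17 (standard error 0.07; adjusted p of 1 from limma).

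**Figure D4:**
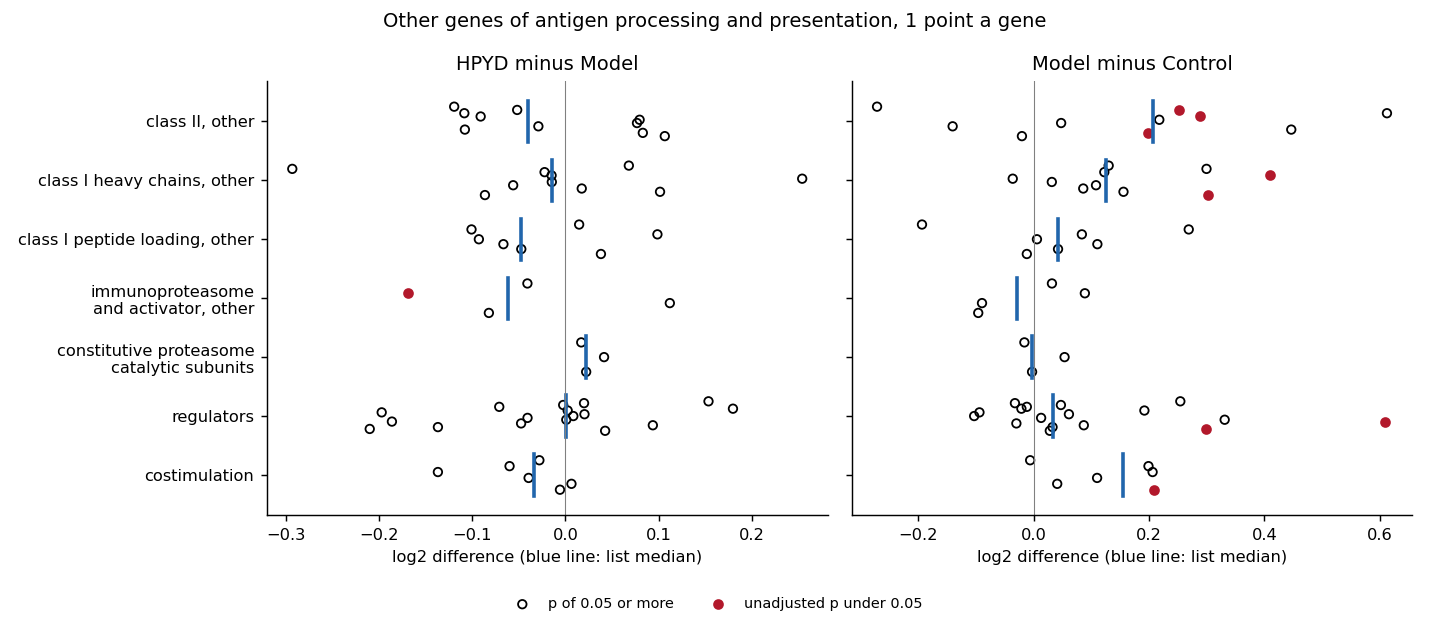
Log2 differences (horizontal axes, with scales that differ) of the 57 other measured genes of antigen processing and presentation by list, for HPYD minus model and model minus control. Each point is a gene, filled where the unadjusted p was under 0.05, and blue lines are list medians. The class II, costimulation and heavy chain lists have the medians farthest to the right of 0 in model minus control, at 0.21, 0.15 and 0.13.

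The genes outside the members with the highest Pearson r with the mean of the 4 class II members over the 9 arrays were Gimap4 (0.980), a GTPase of lymphocytes, Ifi27l2a (0.979), an interferon-induced gene, Steap4 (0.975), a metalloreductase, Isg20 (0.971), an interferon-induced nuclease, Adam8 (0.970) and Emp3 (0.969). The arrays fell into 3 high and 6 lower ones for these genes, and share labelling and scaling, so r describes that split. Ifi27l2a, for example, was 5.49, 6.18 and 5.71 in the HPYD group, 6.40, 6.30 and 5.32 in the model group and 5.52, 5.57 and 5.37 in the control group. For the mean of the other 4 members they were Cd300a (0.977), an inhibitory receptor of myeloid cells, Syngr2 (0.962), Bst2 (0.959), which tethers viruses and is induced by interferon, Ddx58 (0.952), a sensor of viral RNA, Tgfbi (0.952) and Snap23 (0.948). Bst2 was 7.53, 7.78 and 7.57 in the HPYD group, 7.65, 7.71 and 7.47 in the model group and 7.36, 7.46 and 7.24 in the control group. All arrays labelled as transgenic, with HPYD group 3 among them, lay above all control arrays. The mean of the other 4 members was itself at least 8.02 in those arrays and at most 8.01 in the control arrays. Bst2 was picked for its likeness to that mean, so its split is not a separate result.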

How the data were processed

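The 9 brain samples were profiled on the GeneChip Mouse Gene 1.0 ST platform, and groups were taken from the sample titles. The authors deposited log2 values for 35556 probe sets, between 2.37 and 14.01; per the processing notes of the submitters the tool was MAS5, without a version, and the array scaling was not given in the sources used here. The paper names RNeasy kits and labelled cDNA, the labels Trizol and cRNA. With 0 columns unused and 3 arrays a group, the number of arrays limits the precision.

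Probe sets with 1 symbol (21789) were reduced to the row of highest mean for each of 19938 genes, and groups were compared in R 4.3.3 with limma 3.58.1 over all 9 arrays with no covariate (6 residual and 2.13 prior degrees of freedom), Benjamini-Hochberg adjusted, with single members also given an exact permutation test. The fit was tested on simulated data. Members and lists were chosen with earlier results of these data known: named genes were all 8 members, up to 4 pathway genes by p for model against control, up to 2 cell type markers by mean, the 6 genes most like each member mean, and App, Prnp, Xist and Kdm5d.

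Alternatives tried were a median shift, quantile normalization, a filter on dim genes, the mean of probe sets, only the arrays compared, array weights, an intensity trend, the replicate number as a block, each array left out, and the methods' one-way analysis of variance; the fit without 3 arrays and the granulocyte covariate were added after the data were seen.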

Additional observations from a re-analysis of the deposited data

How the results depend on the processing

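No member was called by limma at an adjusted p under 0.05 under any alternative run, including each array left out. Where an alternative gave another estimate, the single-member differences kept their sign in 68 of 88 cases for HPYD against model, 85 of 88 for model against control and 88 of 88 for HPYD against control. The median difference of HPYD from model was 0.14 without the 3 arrays with raised granulocyte and muscle genes (-0.13 with all arrays) and ranged between -0.31 without model group 3 and 0.046 without HPYD group 1; that of model from control was 0.042 without the 3 arrays (0.42 with all arrays) and ranged between 0.30 without model group 1 and 0.60 without model group 3; that of HPYD from control ranged between 0.16 without HPYD group 2 and 0.42 without HPYD group 1.

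For HPYD against model, array weights turned H2-Aa to 0.055 and H2-Eb1 to 0.027. Without the 3 arrays Cd74 was 0.16, H2-Aa 0.54, H2-Ab1 0.086, H2-Eb1 0.23 and Tap1 0.13, and with the granulocyte covariate Cd74 was 0.083, H2-Aa 0.26, H2-Ab1 0.039 and H2-Eb1 0.17. Leaving out 1 array gave -0.68 to 0.15 for H2-Aa, -0.37 to 0.12 for H2-Eb1, -0.15 to 0.039 for Tap1 and -0.078 to 0.11 for Psmb9. For model against control without the 3 arrays, H2-Aa was -0.18, H2-Eb1 -0.10 and Psmb9 -0.057. The methods' one-way analysis of variance, unadjusted, gave 1 member, B2m, among 441 genes, and 0 after Benjamini-Hochberg. The cause of these changes was not tested.

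With the replicate number as a block, limma called 0 members in each comparison. For model against control 3 of the 8 members had an unadjusted p under 0.05, against 4.66% of all genes. Without the block these were 2 of the 8 and 4.92%. Correlations of deviations between same-numbered arrays lay between -0.32 and 0.18. Arrays of different number were not compared in this way, so these values do not settle whether the numbers pair the samples. The filter on dim genes left out Psmb8, which has no value there. With 3 arrays a group, 1 of them against its label, small differences may have gone undetected.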
